A study of Mus musculus with 3 samples.

Results

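The genes described here are the cholesterol and fatty acid synthesis genes of mouse T-helper 1 cells, 31 genes chosen by symbol among the 50600 genes of the deposited tables. The list holds 4 regulators of the sterol regulatory element binding proteins (SREBPs), 18 enzymes of the sterol pathway, 6 enzymes of fatty acid synthesis and 3 genes of sterol transport, and all 31 were found. Total RNA-seq was made from primary T-helper 1 cells of C57BL/6NJ mice. The 3 libraries form 1 group and are labelled as biological replicates, each with its own biosample record, while all point to the same donor record. The labels name no treatment, give the age as unknown and the sex as not collected, and the file headers carry a 16 hr tag. With 1 group there was no contrast between conditions, so levels were compared within a library and set against the spread between libraries. Levels are given as TPM, a count scaled by gene length and by the library's total.

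SREBPs are transcription factors made as membrane proteins of the endoplasmic reticulum. When sterols are low, the escort protein Scap carries them to the Golgi, where they are cut and released to the nucleus, and Insig proteins hold Scap back when sterols are high. Srebf2 is best known for driving sterol enzymes and Srebf1 for fatty acid enzymes. T cells that are activated to divide are known to raise this programme, since new membranes need both products.

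The start regions of the genes are shown first because the shared control of this pathway is known to be read from short elements there. RefSeq promoter windows (GRCm38.p6, 250 bases before to 50 after the start) were matched by symbol for 24 of the 31 genes, in 30 windows, and not for Fdps, Fdft1, Sqle, Scd1, Scd2, Stard4 and Abcg1. Each window was searched on both strands for TCACNCCAC, a core of the sterol regulatory element, for ATTGG, the inverted CCAAT box, and for the E-box CACGTG, which reads the same on both strands. The sterol element core was found in the window of 1 gene, Hmgcs1, against 1.24% of all 32851 windows. The inverted CCAAT box was found in 19 of the 24 genes (20 of 30 windows), against 37.4% of all windows, and the E-box in 6 of the 24 genes (7 of 30 windows), against 7.15%. A match is a description of the letters and not a measured binding site. The stretches below are those of the 5 genes of highest level that held a match before the start and outside the deposited exons, from the first to the last such match with up to 15 bases on either side. They run 5′ to 3′ on the gene's strand, and capitals mark the matches. Hmgcs1 lies at chr13:119690101-119690325 (plus strand), Srebf2 at chr15:82147119-82147153 (plus), Fasn at chr11:120824587-120824652 (minus), Mvd at chr8:122443430-122443497 (minus) and Insig1 at chr5:28071181-28071331 (plus).
Hmgcs1: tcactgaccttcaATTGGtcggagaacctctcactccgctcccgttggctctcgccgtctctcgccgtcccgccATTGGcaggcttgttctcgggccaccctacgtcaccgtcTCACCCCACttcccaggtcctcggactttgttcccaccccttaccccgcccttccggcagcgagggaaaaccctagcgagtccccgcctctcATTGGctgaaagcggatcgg
Srebf2: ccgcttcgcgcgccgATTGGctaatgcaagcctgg
Fasn: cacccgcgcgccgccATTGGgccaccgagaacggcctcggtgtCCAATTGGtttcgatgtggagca
Mvd: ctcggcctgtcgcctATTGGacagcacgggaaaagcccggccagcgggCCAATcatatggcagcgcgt
Insig1: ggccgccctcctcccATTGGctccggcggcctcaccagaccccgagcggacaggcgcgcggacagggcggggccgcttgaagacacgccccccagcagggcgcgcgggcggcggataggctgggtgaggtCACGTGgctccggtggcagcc
Hmgcs1 held the sterol element core, 137 bases before the RefSeq start, together with inverted CCAAT boxes on either side of it. In Fasn a CCAAT and an ATTGG overlapped in 1 run of letters, and in Insig1 the E-box lay 101 bases before the start.

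The libraries held 2568928 to 4764598 counts on genes, and a TPM of 1 stood for 1.276 to 2.255 counts per kilobase of exon. The 31 genes together held 7280, 3368 and 2472 counts in replicates 1, 2 and 3. The count tables were made with strand setting 1, and some members lie opposite another gene, so each member was checked for exons within a gene of the other strand. Genes with such exons made up 26.4% of all genes and held 58.1%, 62.3% and 73.2% of the counts in replicates 1, 2 and 3. Whether the setting matches the strand of the libraries was not tested, and it may be reversed. In that case the level and rank of every gene below, clear or overlapped, would count the reads of the other strand and not its mRNA. Replicate 2 stood apart in low counts, with 430 genes at exactly 1 count against 1912 and 1888 in replicates 1 and 3. Xist, the RNA of the inactive X chromosome, had 807, 1110 and 4 counts and the Y-linked gene Ddx3y had 161, 0 and 81, so replicate 1 held both, replicate 2 only the first and replicate 3 mainly the second, although the donor record is the same. All 6 T cell markers checked were at 1 TPM or more in every library, among them Cd4 and Cd3d, with a sum of 591 to 1229 TPM. Of the Th1 markers, Tbx21 had 2, 10 and 2 counts, Ifng 1, 0 and 0, and Cxcr3 0, 0 and 1, while Il12rb2, whose exons lie inside an opposite-strand gene, had 123, 75 and 91. Thus 3 of the 4 Th1 markers, with the defining factor and cytokine among them, were at or near 0. All 3 adipocyte and all 3 hepatocyte markers, from tissues in which this pathway is strong, had 0 counts in every library. Of the other markers, Cd79a of B cells had 27, 0 and 17 counts and Cd68 of macrophages 10, 2 and 6, while the other 2 B cell and 3 macrophage markers had 0. The B cell markers summed to 0 to 8.22 TPM and the macrophage markers to 1.25 to 3.53. The part of such cells in the values below was not tested.

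Most of the genes were detected. Of the 31 genes, 27 reached 1 TPM in every library, against 39.8% of 21764 protein-coding genes. Over clear genes alone, meaning genes with no exon inside a gene of the opposite strand, 20 of 24 members did so, against 37.4% of 15865 coding genes. The median of mean log2(TPM + 1) was 3.42 for the members and 0.41 for coding genes. In bulk RNA, fewer cells with a transcript and less of it per cell cannot be told apart. The 4 genes that missed the cutoff in at least 1 library were Tm7sf2, Scd1, Abca1 and Abcg1. The members summed to 480 TPM ± 168 (SD, n = 3), of which the sterol enzymes made up 233 ± 83.6 and the fatty acid enzymes 146 ± 52.8.

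**Figure D1:**
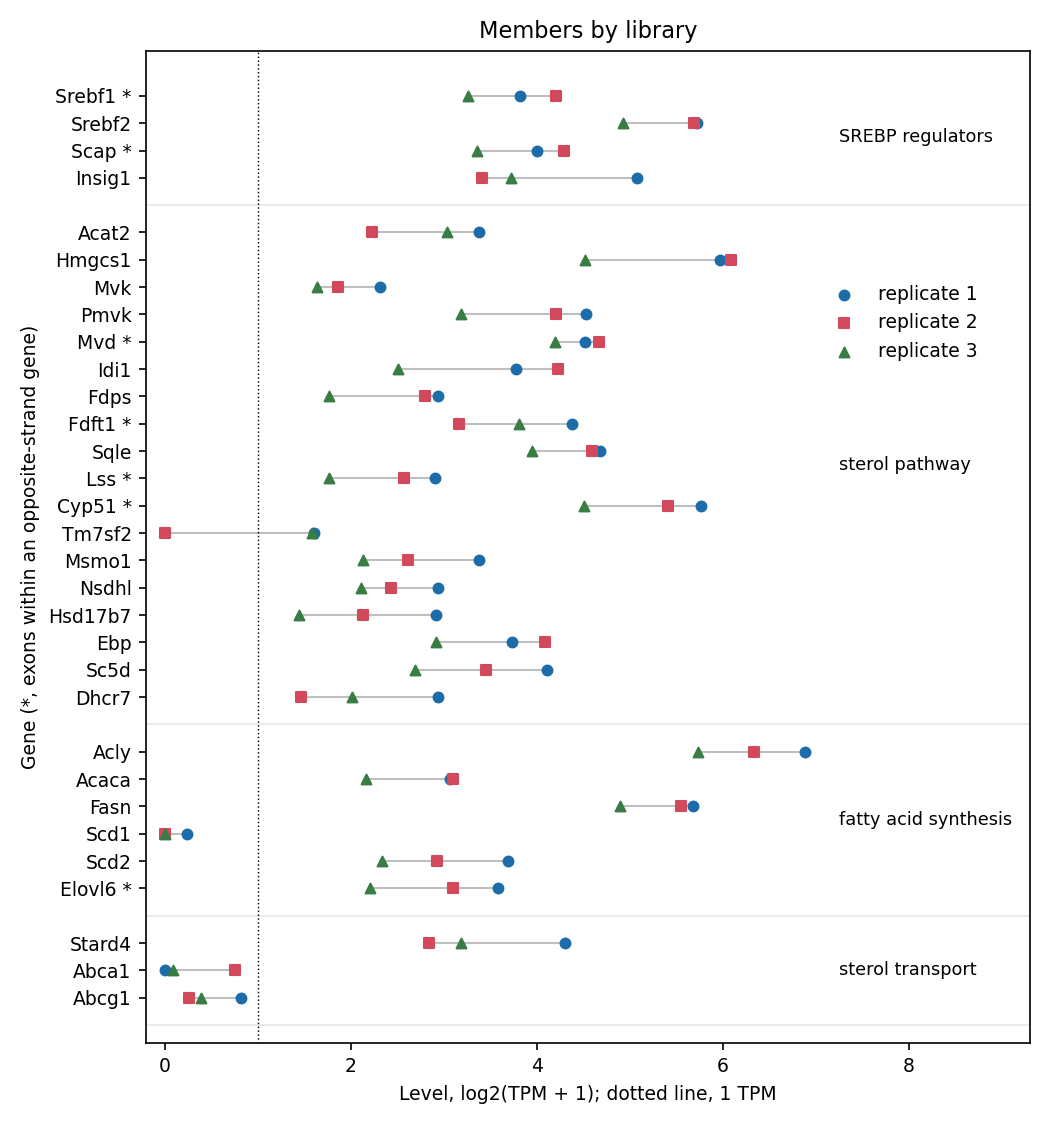
Level of each of the 31 genes on a log2(TPM + 1) scale, 1 point per library, grouped by role, with a grey line from the lowest to the highest library and an asterisk for the 7 genes with exons inside an opposite-strand gene. Acly, Hmgcs1, Srebf2, Fasn and Cyp51 lie farthest right, replicate 3 is the lowest point for most genes, and Scd1, Abca1 and Abcg1 lie left of the dotted line at 1 TPM.

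Among the regulators, Srebf2 stood above Srebf1. Srebf2 (chromosome 15 from 82147266 to 82205376, mm10) had 51.8, 50.6 and 29.5 TPM in replicates 1, 2 and 3, from 583, 322 and 234 counts. Srebf1 had 13.1, 17.4 and 8.60 TPM, and its highest library lay below the lowest of Srebf2. The log2 ratio of Srebf2 to Srebf1 was 1.69 ± 0.21 (SD, n = 3) and above 0 in 3 of 3 libraries. An exact two-sided sign-flip permutation test gave p = 0.25, the smallest that 3 libraries allow, and an adjusted p = 0.333 over the 4 ratios tested. From all counts the length-scaled ratio was 3.50, and its exact 95% counting interval ran from 3.10 to 3.94. This interval, like the others given, covers counting error only.

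Scap, the escort of both SREBPs, had 15.02, 18.64 and 9.21 TPM, a level close to that of Srebf1. Insig1, the retention protein whose transcript is itself a known SREBP target, had 32.7, 9.63 and 12.2 TPM (228, 38 and 60 counts). Replicate 1 was the highest library for Insig1, at more than the other 2 libraries together. Its paralog Insig2, a gene outside the list, had 5.75, 5.42 and 2.54 TPM. The log2 ratio of Insig1 to Insig2 was 2.32, 0.73 and 1.90 in the 3 libraries, a mean of 1.65 ± 0.83 (SD, n = 3; exact sign-flip permutation p = 0.25, adjusted p = 0.333). The ratio was above 0 in 3 of 3 libraries but varied more between them than that of the SREBPs.

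**Figure D2:**
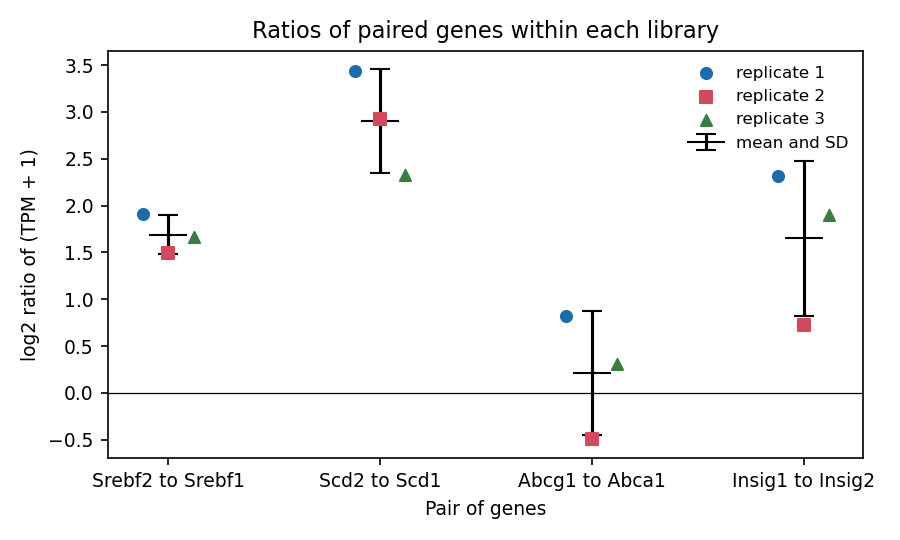
Ratio of paired genes within each library as log2 of (TPM + 1), with points for replicates 1 to 3 and bars for the mean and SD over the 3 libraries. All 3 libraries lie above 0 for Srebf2 to Srebf1, Scd2 to Scd1 and Insig1 to Insig2, whereas those of Abcg1 to Abca1 lie on both sides of 0.

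The sterol pathway starts with Acat2, the cytosolic thiolase, and Hmgcs1, which makes HMG-CoA. Hmgcs1 (chromosome 13 from 119690462 to 119708086) was the highest sterol enzyme, with 61.87, 67.17 and 21.98 TPM (451, 277 and 113 counts). Replicates 1 and 2 were close and replicate 3 was the lowest. Acat2 had 9.41, 3.70 and 7.17 TPM from 54, 12 and 29 counts, and it was lowest in replicate 2. The counts of Acat2 are uncertain, since its transcript shares 1477 bases at 97.7% identity with that of Acat3, and the counting command carried no option for reads that map to several places. Acat3 held 11173, 7510 and 9923 counts, and its exons overlap those of the chaperonin gene Tcp1 on the other strand by 571 bases. Per kilobase, Acat3 had 4765, 3203 and 4232 counts and Tcp1 968, 427 and 574.

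The mevalonate steps that follow were below Hmgcs1 and uneven among themselves. Mvk, mevalonate kinase, had 3.98, 2.64 and 2.12 TPM, the lowest mean among the sterol enzymes that reached 1 TPM in every library. Pmvk, the next kinase, had 22.01, 17.39 and 8.08 TPM. Mvd, the decarboxylase that makes isopentenyl diphosphate, had 21.95, 24.46 and 17.25 TPM. It was the most even of the 31 genes in TPM, with an SD of 17.2% of its mean. This holds for TPM only, which carries shifts shared by each library (below). After TMM scaling Mvd ranged over 0.279 log2 units, against 0.17 for Fasn and 0.18 for Sqle. In TPM every library of Pmvk and of Mvd lay above every library of Mvk. Idi1, the isomerase, had 12.7, 17.7 and 4.67 TPM, and Fdps, farnesyl diphosphate synthase, had 6.64, 5.96 and 2.39. Idi1 was highest in replicate 2 and lowest in replicate 3. Its transcript shares 684 bases at 100% identity with the pseudogene Gm13502 and 681 at 97.7% with the pseudogene Gm35570. Both pseudogenes had 0 counts in every library. The part of reads that map to several places in the level of Idi1 was not tested.

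Of the enzymes that make and close squalene, Sqle, the epoxidase, had 24.6, 23.2 and 14.4 TPM (307, 164 and 127 counts). Fdft1, squalene synthase, had 19.9, 7.95 and 13.0 TPM, and Lss, which closes the ring to lanosterol, had 6.497, 4.94 and 2.39. In TPM every library of Lss lay below every library of Sqle and of Fdft1. The order with Fdft1 rests on length scaling. Lss had 158, 68 and 41 counts over 10787 exon bases, and Fdft1 had 128, 29 and 59 over 2860. Both Fdft1 and Lss have exons on the opposite strand of another gene, described below. The transcript of Fdft1 also shares 1249 bases at 97.4% identity with the pseudogene Gm6781, which had 0 counts in every library.

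After lanosterol, Cyp51, the lanosterol demethylase, stood out with 53.6, 41.4 and 21.8 TPM (533, 233 and 153 counts). The other enzymes of this stretch were lower: Ebp, an isomerase, averaged 11.6 TPM ± 4.75 (SD, n = 3) and Sc5d, a desaturase, 10.6 ± 5.42. Msmo1, a methylsterol oxidase, averaged 5.96 ± 3.09, Nsdhl 4.80 ± 1.72, Hsd17b7 3.87 ± 2.43 and Dhcr7, which acts at the last step of the Kandutsch-Russell branch, 3.80 ± 2.53. In each library Cyp51 was above all of these. Tm7sf2, a sterol reductase, had 16, 0 and 11 counts. By counting error alone, its count of 0 in replicate 2 allows up to 0.675 TPM, below the 2.04 and 1.99 TPM of replicates 1 and 3. Replicate 2 was the library with few genes at 1 count, so a higher level there is not excluded.

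Fatty acid synthesis was led by Acly and Fasn. Acly, which makes cytosolic acetyl-CoA from citrate (chromosome 11 from 100476353 to 100528000), was the highest of the 31 genes, with 117, 79.9 and 52.1 TPM (1391, 538 and 437 counts). It was above Hmgcs1, the next in order, in 3 of 3 libraries, although the ranges of both genes over the libraries overlapped. Fasn, fatty acid synthase, had 50.2, 46.0 and 28.8 TPM (1238, 642 and 501 counts). Acaca, the carboxylase that feeds Fasn, had 7.40, 7.58 and 3.46 TPM, below Fasn in each library. Elovl6, an elongase, had 10.97, 7.56 and 3.62 TPM, and its transcript shares 805 bases at 97.4% identity with the pseudogene Gm11295. Acaca, the longest of these genes at 17074 exon bases, shares 6118 bases at 99.2% identity with the pseudogene Gm5182, which had 5, 0 and 0 counts.

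The 2 stearoyl-CoA desaturases, which make monounsaturated fatty acids, differed most of the pairs compared. Scd2 (chromosome 19 from 44293676 to 44306864) had 146, 46 and 35 counts, or 11.9, 6.61 and 4.04 TPM. Scd1 (chromosome 19 from 44394451 to 44407709) had 2, 0 and 0 counts, and a count of 0 allowed up to 0.486 TPM in replicate 2 and 0.390 in replicate 3. All libraries of Scd2 lay above all of Scd1. From all counts the length-scaled ratio of Scd2 to Scd1 was 101, and its exact 95% counting interval ran from 27.5 to 836. The mean log2 ratio of (TPM + 1) was 2.90 ± 0.56 (SD, n = 3), above 0 in 3 of 3 libraries (exact sign-flip permutation p = 0.25, adjusted p = 0.333). With a pseudocount of 0.1 it was 5.61, since the pseudocount sets the value where Scd1 is near 0. Both genes are clear, and their transcripts share 623 bases at 95.5% identity.

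Of the transport genes, Stard4, a cytosolic sterol carrier, had 18.7, 6.17 and 8.11 TPM from 235, 44 and 72 counts, with replicate 1 highest as for Insig1. The cholesterol exporters were near the floor. Abca1 had 0, 9 and 1 counts and Abcg1 7, 1 and 2, all under 1 TPM. The log2 ratio of Abcg1 to Abca1 was 0.82, -0.50 and 0.30 (mean 0.21 ± 0.66, SD, n = 3; exact sign-flip permutation p = 0.75, adjusted p = 0.75), and neither gene was the higher in every library. The length-scaled ratio from 10 counts of each was 2.55, and its exact 95% counting interval ran from 0.952 to 6.82.

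Exons of 7 members lay inside an opposite-strand gene of the deposited tables, and 6 of these overlapped its exons. Hmgcs1 and Idi1 were clear by these tables. In the GENCODE vM21 transcripts, however, Gm48342 and Gm48574, which the tables lack, match their reverse strands over 462 and 323 bases at 100% identity. Scap overlapped 5830462I19Rik, a noncoding locus of the annotation class TEC, by 985 bases. Per kilobase of exon, Scap had 33.9, 23.8 and 14.6 counts and 5830462I19Rik had 598, 309 and 497. Lss overlapped the antisense gene 4930483K19Rik by 381 bases, with 14.7, 6.30 and 3.80 counts per kilobase for Lss and 407, 244 and 326 for 4930483K19Rik. In both pairs the noncoding gene was above the coding gene in 3 of 3 libraries, by 13.0- to 33.9-fold for Scap and 27.8- to 85.7-fold for Lss.

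In the other pairs the opposite-strand gene was not far above the member, and in some it was far below. Srebf1 overlapped Rai1, a chromatin protein gene, by 109 bases, and Rai1 had 0.938, 0.587 and 1.11 times its counts per kilobase. Fdft1 overlapped Ctsb, a lysosomal protease gene, by 767 bases (26.8% of its exons), with ratios of Ctsb to Fdft1 of 1.22, 2.10 and 0.849. Cyp51 overlapped Akap9, a centrosomal scaffold gene, by 166 bases, and Akap9 had 0.237, 0.503 and 0.497 times its counts per kilobase. Elovl6 overlapped Gm35986 by 34 bases, and Gm35986 had 1, 0 and 1 counts. Mvd lay inside the body of Gm20388 with no shared exon, and Gm20388 had 0 counts. The part of the strand setting in these differences was not tested.

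**Figure D3:**
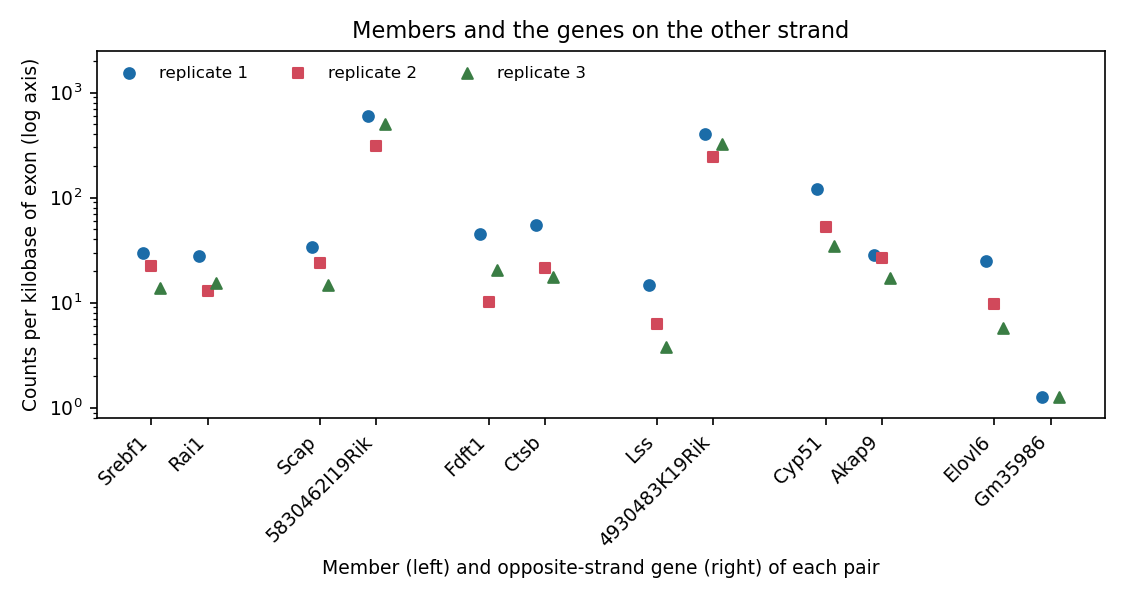
Counts per kilobase of exon, on a log axis, for the 6 members whose exons overlap those of an opposite-strand gene (left of each pair) and for that gene (right), 1 point per library. The points of 5830462I19Rik and 4930483K19Rik lie above all points of Scap and Lss, the other pairs lie closer or with the member higher, and the 0 of Gm35986 in replicate 2 cannot be shown on the axis.

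The spread between libraries was larger than counting error for many members, as for most genes. In TPM every library carried a shift shared by its genes, with a median deviation over coding genes of 0.32, 0.11 and -0.41 (log2) in replicates 1, 2 and 3, so differences between libraries were taken after TMM scaling. An edgeR likelihood-ratio test of equal expression in the 3 libraries, with counting error alone, called 20 of the 30 members with at least 10 counts in all (adjusted p under 0.05), against 72.4% of 13082 genes tested. The test compares these libraries and not conditions. Called were 3 of 4 regulators, 11 of 18 sterol enzymes, 4 of 5 fatty acid enzymes tested and 2 of 3 transport genes. The number fell to 13 of 29 without replicate 1, to 12 of 28 without replicate 2 and to 15 of 28 without replicate 3, against 53.4%, 42.2% and 51.5% of all genes, and was 13 of 23 over clear genes, against 58.4%.

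The members did not share 1 order of the libraries. Insig1, Stard4 and Dhcr7 were highest in replicate 1 and lowest in replicate 2, with log2 differences of replicate 1 over replicate 2 of 1.63, 1.47 and 1.79 (adjusted p = 1.95e-12, 1.57e-10 and 2.54e-05, edgeR over the 3 libraries). Fdft1 and Acat2 were also lowest in replicate 2, with 1.19 and 1.22, but replicate 3 was their highest library. Without replicate 2 the adjusted p in edgeR was 0.29 for Dhcr7, 0.733 for Fdft1 and 0.451 for Acat2, and replicate 2 was the library with few genes at 1 count. Tm7sf2, Srebf1, Scap and Acaca also lost their calls without replicate 2, with adjusted p of 0.349, 0.663, 0.943 and 0.0616. Acly, Scd2, Msmo1, Hsd17b7, Sc5d, Elovl6 and Lss lost theirs without replicate 1, their highest library, with an adjusted p of 0.334 for Acly and 0.85 for Msmo1 in edgeR. Cyp51, Acaca, Elovl6 and Lss lost theirs without replicate 3, with 0.06, 0.338, 0.097 and 0.288.

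Hmgcs1 and Idi1 went another way, highest in replicate 2 and lowest in replicate 3, with log2 differences of replicate 2 over replicate 3 of 1.11 and 1.42 (adjusted p = 1.08e-11 and 4.97e-05, edgeR). Insig1, Hmgcs1, Idi1 and Stard4 were called in all 8 settings. The settings reuse the same counts, and each called between 42.2% and 81.4% of all genes it tested. The share of all genes called in all 8 was not computed. Abca1, with 0, 9 and 1 counts, was called in the 6 settings in which it was tested. Of its 10 counts, 9 were in replicate 2, so the call rests on that library. Without replicate 2 or without replicate 3 Abca1 fell under the minimum of 10 counts and was not tested. Srebf2, Sqle, Mvd, Mvk, Nsdhl and Fasn were among the 10 members tested and not called. After TMM scaling Fasn had 235, 235 and 209 CPM (counts scaled by library total) and Sqle 58.2, 60.1 and 53.0, so the libraries were close in both. In TPM over clear genes Fasn had 161 ± 0.945, Sqle 80.3 ± 1.46 and Srebf2 170 ± 7.65 (SD, n = 3), far narrower than the 69.0 ± 35.6 of Insig1. With total counts as library sizes, Fasn, Sqle and Srebf2 were called as well, whereas with DESeq2 size factors, as with TMM, they were not.

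**Figure D4:**
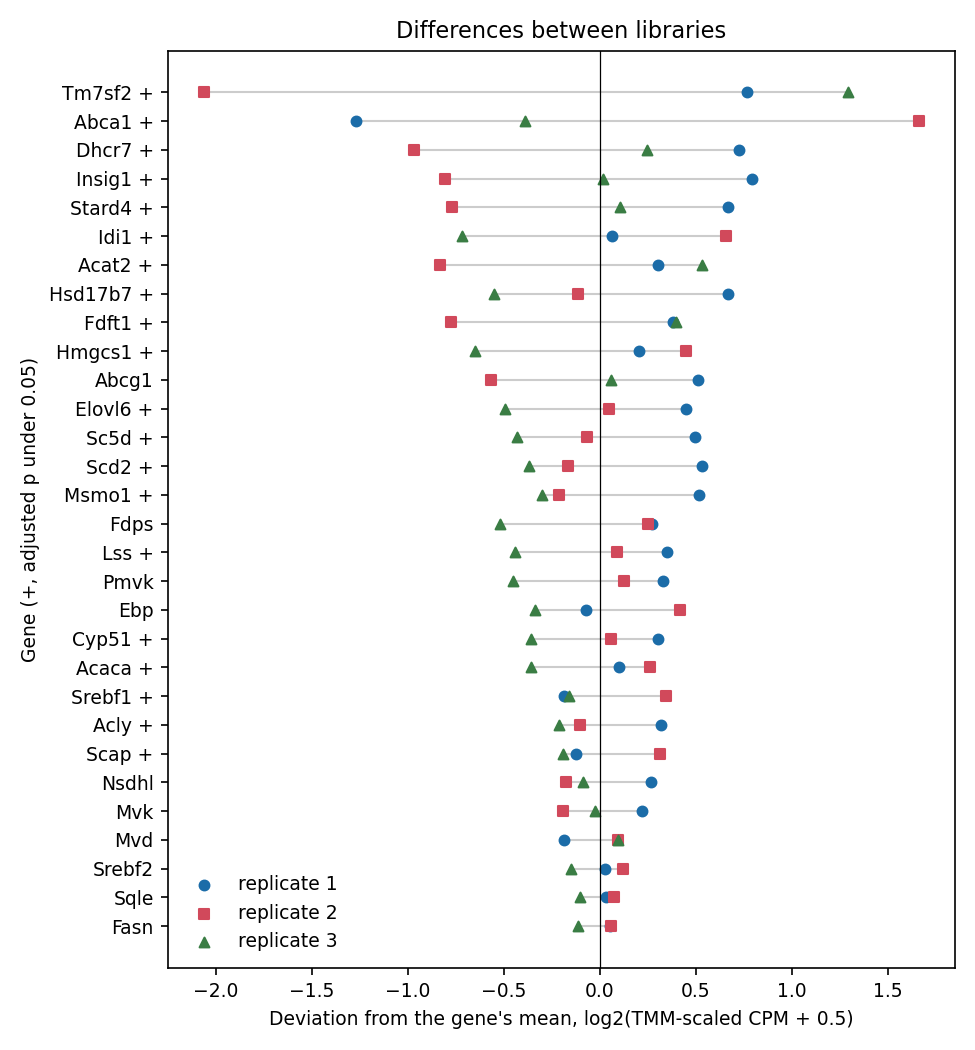
Deviation of each library from the gene's mean in log2(TMM-scaled CPM + 0.5), for the 30 members with at least 10 counts in all, ordered by range, with a plus sign for adjusted p under 0.05 in edgeR. Fasn, Sqle and Srebf2 lie at the narrow end, Tm7sf2 and Abca1, each with 0 counts in 1 library, at the wide end, and replicate 2 is the left point for Insig1, Stard4, Dhcr7, Acat2 and Fdft1.

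After TMM scaling, 18 of the 30 members (60.0%) were lowest in replicate 3 and 16 (53.3%) were highest in replicate 1, against 42.4% and 39.3% of 10631 coding genes with at least 10 counts. The median log2 difference of replicate 1 over replicate 3 was 0.47 over the members and 0.21 over those coding genes. Of the 6 T cell markers, 5 were likewise lowest in replicate 3 and 5 highest in replicate 1, so this was not particular to the members. TMM scaling was fitted over all genes, clear or overlapped. In TPM over clear genes, the median log2 level of the 24 clear members was 5.13, 4.56 and 4.65 in replicates 1, 2 and 3. On that scale replicate 3 was not the lowest. The median SD of log2(TPM + 1) was 0.61 over the 16 members with a mean of at least 10 TPM and 0.49 over 5314 such coding genes. With the shift shared by each library removed it was 0.32 and 0.30, and without replicate 3 it was 0.25 for the members. With shifts removed, the members and coding genes thus had a similar median spread.

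Of 28 further genes of the pathway, 21 reached 1 TPM in every library, against 39.8% of 21764 protein-coding genes. Of the 28, 18 were clear. Stard5, a sterol-binding protein gene, was the highest at 352 TPM ± 59.2 (SD, n = 3), but its exons overlap those of the cytokine gene Il16 on the other strand by 1202 bases. It had 3807, 2279 and 3642 counts against 311, 133 and 116 for Il16. Lpcat3, a phospholipid acyltransferase gene (53.7 ± 20.0), Aup1 (35.6 ± 9.11) and Rnf139 (29.8 ± 5.38), which act in the turnover of sterol-regulated proteins, had exons inside an opposite-strand gene as well, with no shared exon for Rnf139.

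Npc2, a lysosomal cholesterol carrier (42.8 TPM ± 18.3), and Slc25a1, the citrate carrier that supplies Acly (34.9 ± 16.7), were the 2 clear genes among the 6 highest. Mbtps1 and Mbtps2, the proteases that cut SREBPs, averaged 8.42 ± 2.92 and 3.20 ± 1.25 TPM. Nr1h2, the broadly expressed LXR that is known to drive Abca1 and Abcg1, averaged 19.7 ± 7.51 TPM, whereas its relative Nr1h3 had 2, 0 and 6 counts. Me1 and Soat2 had 0 counts in every library and Fads2 had 3, 0 and 0. Of these 28 genes, 24 were tested between libraries and 16 were called by edgeR, against 72.4% of all genes tested.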

How the data were processed

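The deposited tables hold whole-number counts per gene, which the authors obtained from read pairs with featureCounts v1.4.6-p4, at strand setting 1, from GENCODE vM13 exons on mm10, per the file headers. The deposited exon length of each gene, in bases, is another column of the same tables. It takes in the exons of all transcripts of a gene, as for Acaca with 17074 bases against 9513 in its longest transcript. The labels name total RNA, while the linked library protocol carries poly(A) RNA in its name.

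TPM was computed here from counts and lengths. Symbols and gene types came from GENCODE vM21, overlaps from the deposited exon coordinates. The 4 ratios used the log2 of TPM plus a pseudocount of 1, and the test between libraries used edgeR with dispersion 0, TMM scaling, at least 10 counts in all and Benjamini-Hochberg adjustment over all genes tested. The test was run on simulated counts drawn with counting error alone, which is the model it assumes. Spread between libraries beyond counting error was not simulated. The upper limit of a 0 was set at 3 counts, which covers counting error only. Whether it holds in replicate 2, which had few genes at 1 count, was not tested. Copies were found with blastn among GENCODE vM21 transcripts at 95% identity or more. The members and lists were chosen with earlier results of these data known; every member is named, and of the further pathway genes the 6 highest and those under 1 TPM, the others being chosen after their values were seen. The labels do not say that the replicates came from separate animals, although sex-linked counts differed between them, and tests measure only the spread between these samples. Alternatives were other scalings, pseudocounts and cutoffs, and each replicate left out. Tests ran in edgeR 4.0.16 and DESeq2 1.42.0 under R 4.3.3, and the other steps in SciPy 1.17.1 and pandas 2.3.3 under Python 3.11.15.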

Additional observations from a re-analysis of the deposited data

How the results depend on the processing

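In 46 of 59 alternatives a result kept its direction and its side of the threshold, or stayed close to its value. For the 4 ratios the side of the threshold was fixed in advance. The sign-flip p cannot fall below 0.25 with 3 libraries or 0.5 with 2, so only their direction could change. The members at the detection cutoff numbered 15 at 5 TPM, and 27 or 28 when any 1 replicate was dropped. The median level of 3.42 was 4.76 in TPM over clear genes, 4.32 in CPM, 2.56 in FPKM with TMM scaling and 3.01 to 3.57 with a replicate left out, where the first 3 are other scales. The median spread of 0.605 was 0.38 over clear genes, 0.15 in FPKM with TMM scaling (7 members left), 0.318 with library shifts removed (an alternative chosen after seeing the data), and between 0.253 and 0.673 when any 1 replicate was dropped. The members differing between libraries numbered 20 of 30 tested, against 72.4% of all genes, and 13 of 23 in clear genes, against 58.4%. They numbered 13 of 29, 12 of 28 and 15 of 28 without replicates 1, 2 and 3, against 53.4%, 42.2% and 51.5% of all genes. The log2 ratio of Abcg1 to Abca1 turned from 0.209 to -0.0189 in CPM and ranged from -0.0955 without replicate 1 to 0.561. The other ratios kept their sign in all alternatives, 1.58 to 1.79 for the SREBPs, 2.63 to 3.19 for the desaturases and 1.31 to 2.11 for the Insig genes with a replicate left out. The ratio of the SREBPs was not run over clear genes, since Srebf1 is overlapped. No paired analysis was possible because there was 1 group. With 2 to 42 counts, Scd1, Abca1, Abcg1, Tm7sf2 and Mvk are limited by depth.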
